A study of Mus musculus with 10 samples.

Results

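Cytosolic ribosomal protein genes encode the proteins of the ribosomes that translate messenger RNA in the cytoplasm. They were taken as the protein-coding genes whose symbol is Rpl or Rps followed by a number and at most 1 of the letters a, x, y or l, together with Rplp0, Rplp1, Rplp2 and Rpsa. Of the 80 genes with such a symbol, 77 had a mean of at least 10 counts per library, out of 21939 genes in the deposited table, and all 77 were among the 13641 genes tested. They comprise 46 genes of the large subunit and 31 of the small subunit. The 3 genes left out were Rpl10l, Rpl39l and Rpl3l, duplicates with mean counts of 0.1, 0.2 and 1.1 per library. Their parent genes Rpl10, Rpl39 and Rpl3 are among the 77.

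A ribosome joins a small subunit, which binds the messenger RNA and reads its codons, to a large subunit, which forms the peptide bonds. Its proteins are made in matched amounts and assembled with ribosomal RNA in the nucleolus, so their genes are usually expressed at a high level and in concert. Their messenger RNAs typically start with a stretch of pyrimidines, the terminal oligopyrimidine tract, through which growth signals of the mTOR pathway set how strongly they are translated. Hepatocytes, which secrete large amounts of plasma protein, are rich in ribosomes.

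RNA came from Percoll-purified hepatocytes of 10 male mice, with 1 library per mouse, 12 days after an injection of AAV8Cre. The mice entered the experiment at an age of 8 to 9 weeks. AAV8Cre is a viral vector in which the thyroxine-binding globulin promoter drives Cre recombinase, so that recombination is limited to hepatocytes. All mice received it, including the 3 control mice (C57BL6/j), which carry no floxed allele, the 2 Nrf2 flox/flox mice (Nrf2 KO), the 2 p65 flox/flox mice (p65 KO) and the 3 Nrf2:p65 double floxed mice (DKO). By the study's methods all 4 groups share the same genetic background. Other liver cells keep intact alleles. The level of Nfe2l2, the gene of Nrf2, was 2100 ± 189 normalized counts in the control libraries (SD, n = 3), 4872 ± 188 in the libraries labelled Nrf2 KO (SD, n = 2) and 4261 ± 912 in those labelled DKO (SD, n = 3). That of Rela, the gene of p65, was 1256 ± 29.9 in control (SD, n = 3), 1196 ± 18.6 in the libraries labelled p65 KO (SD, n = 2) and 1255 ± 227 in those labelled DKO (SD, n = 3). Nfe2l2 was thus higher where it was floxed, and Rela was slightly lower in both p65 KO libraries than in every control library without passing the test (log2 fold change -0.07, adjusted p = 0.765). These are totals over the whole gene, which do not show whether exons were deleted, and below p65 KO, Nrf2 KO and DKO stand for the libraries so labelled. Total counts lay between 33707165 and 49897382 per library (median 37043490.5).

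Sequence around the listed transcription starts was available for 57 of the 77 genes. In 38 of them (66.67%), a run of at least 7 pyrimidines that opens with C began within 25 bases of the start, compared with 27.09% of 27025 genes in the same RefSeq table (GRCm38.p6). The search used the transcribed strand. When only the first listed start was read, the shares were 63.16% and 24.06%. Shown here, with 10 bases before each run and the run in capitals, are the windows of the genes that had the run and that the results below turn on. They are written along the transcribed strand, with positions found by exact match in GRCm39. The first 3 are among those with a large decrease in p65 KO, the next 3 fell in DKO, and the last 2 changed little in p65 KO (Rpl4) or in DKO (Rpl27a).
Rps24, chr14:24540734-24540763, + strand: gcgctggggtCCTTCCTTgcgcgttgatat
Rps27l, chr9:66853336-66853365, + strand: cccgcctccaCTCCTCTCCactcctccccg
Rplp2, chr7:141027550-141027579, + strand: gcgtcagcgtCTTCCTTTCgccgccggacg
Rps19, chr7:24584334-24584363, + strand: gtgtggagggCTCTCCCacgcggtcaccac
Rps7, chr12:28685911-28685940, - strand: gctgtccccaCCTCTTTTCTTCCgccaccc
Rpl11, chr4:135780671-135780700, - strand: ggccggaagtCTCCCTCTCTCTTCCTgttc
Rpl4, chr9:64080642-64080671, + strand: agtgacaagtCTTTCCTTTTCCTgtgggag
Rpl27a, chr7:109118388-109118417, + strand: acttcgtgagCTCCTCCCTTTTCCCTTTCT

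Only genes with the run are shown, so these windows cannot tell whether it went with the size of the difference from control. Rpl41, Rpl27, Rps20 and Rpl3, at the ends of the p65 KO values below, are missing here for lack of the run or of available sequence. In the window from 250 bases before to 50 bases after the listed start, searched on both strands, the core of the antioxidant response element, to which Nrf2 binds (TGACNNNGC), was present in 19.3% of the 57 genes and 13.99% of all genes in the table. A site of the NF-kappa-B motif was present in 8.77% and 9.55%. The letters ACTTCCGG, a site of the ETS factor GABPA that shares its CTTCC with pyrimidine runs, were present in 21.05% and 4.31%. CCAAT was present in 33.33% and 41.06%, the SP1 site GGGGCGGGG in 7.02% and 12.91%, and the E-box CACGTG in 10.53% and 8.09%. These matches describe the letters in the window and not binding.

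The expression of the group as a whole was examined first. The 77 genes together took 1.45%, 1.42% and 1.41% of the total count in the 3 control libraries, and 1.41% and 1.45% in the 2 Nrf2 KO libraries. They took 1.13% and 1.34% in the 2 p65 KO libraries, and 1.14%, 1.098% and 1.04% in the 3 DKO libraries. The libraries of p65 KO and DKO thus lay below every control library. Those of Nrf2 KO lay just outside the control range on either side. Replicate 1 was at 1.4061% against 1.4067% in the lowest control, and replicate 2 at 1.4489% against 1.4465% in the highest. After TMM normalization, a scaling of each library that is based on the bulk of the genes, the summed normalized count in control was 552854 ± 28240.5 (SD, n = 3). It was 552710 ± 44762 for the Nrf2 KO mice (SD, n = 2), 422509 ± 50814 for the p65 KO mice (SD, n = 2) and 450306 ± 25250.0 for the DKO mice (SD, n = 3). Relative to control, this sum differed by -23.6% for p65 KO and -18.5% for DKO, and the share of the total count by -13.5% and -23.5%. The order of p65 KO and DKO therefore depended on the scaling, whereas both were below control under either. These sums are descriptions and were not tested. In bulk RNA, fewer cells of a type and less RNA per cell cannot be told apart.

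**Figure D1:**
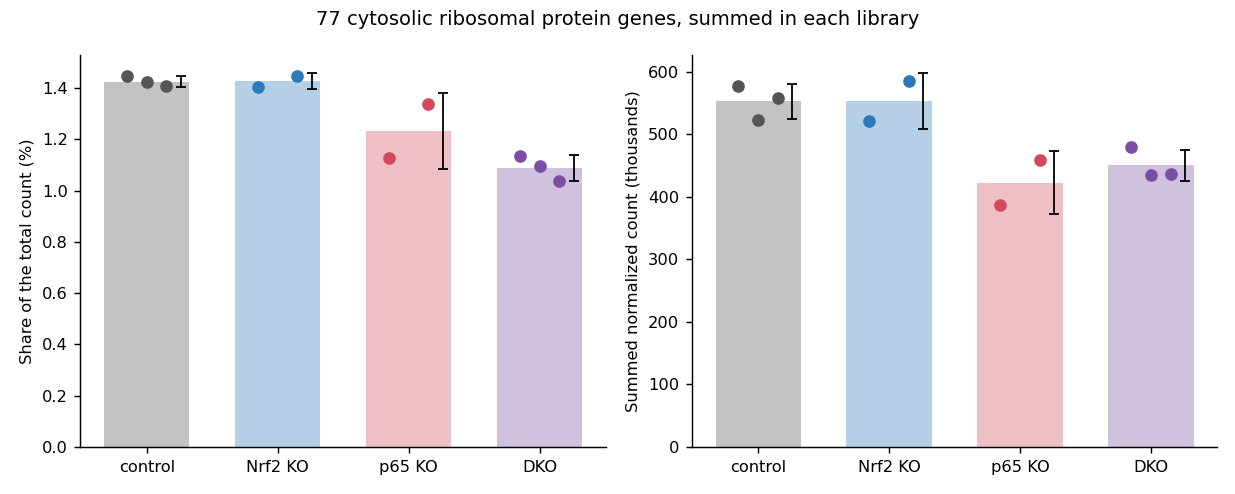
Summed level of the 77 ribosomal protein genes in each library, as a percentage of the total count (left) and as the sum of normalized counts (right), for the 4 genotypes. Points are libraries, bars are means and the error bars beside them are SDs. The 2 p65 KO and 3 DKO libraries lie below the 3 control libraries on both scales.

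Gene by gene, the libraries showed the same order. In p65 KO replicate 1, all 77 genes were below the lowest control library, and in replicate 2 this held for 71 genes. In the DKO libraries it held for 64, 76 and 76 genes. In Nrf2 KO it held for 43 genes in replicate 1 and 6 in replicate 2. The share of all genes below every control library is given below for whole genotypes. It was not computed for single libraries, so these counts have no background of their own. The median log2 ratio to the control mean was -0.55 and -0.28 in p65 KO, -0.22, -0.36 and -0.36 in DKO, and -0.11 and 0.08 in Nrf2 KO, compared with 0.06, -0.09 and 0.01 in the control libraries themselves. The 2 p65 KO libraries thus differed from each other by more than the control libraries did. Among the genes with an average of 50 or more normalized counts, the median over all of them lay between -0.07 and 0.01 in every library.

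**Figure D2:**
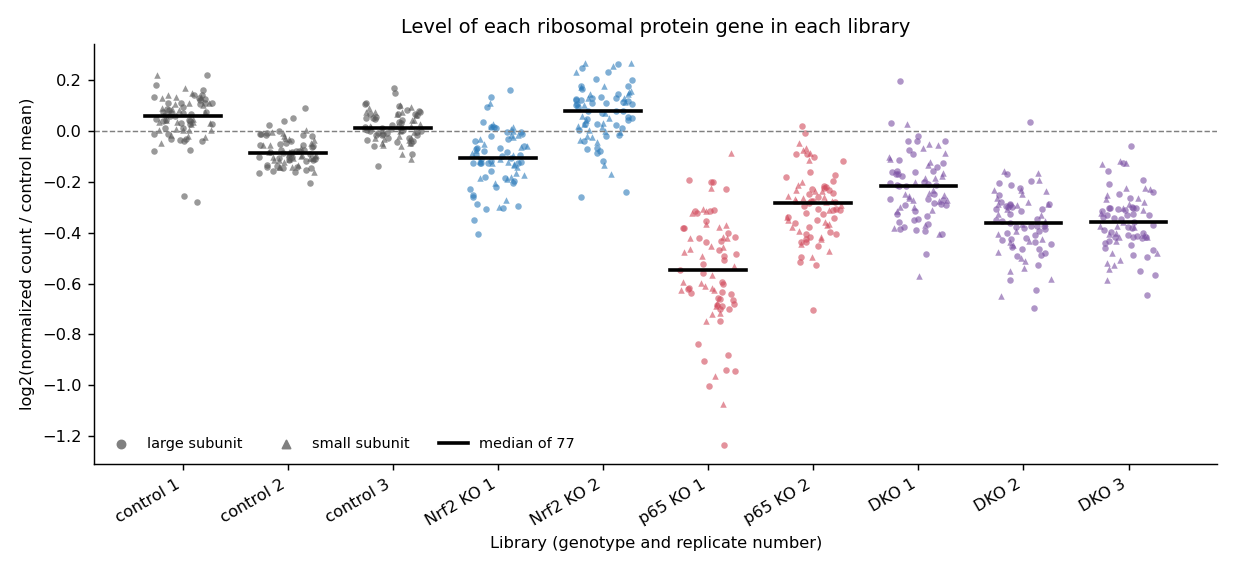
Level of each ribosomal protein gene in each library, as the log2 ratio of its normalized count to the mean of the 3 control libraries, with 1 point per gene, circles for the large subunit, triangles for the small subunit and a bar for the median of the 77 genes. The bars stand at -0.55 and -0.28 for p65 KO and from -0.36 to -0.22 for DKO.

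The first comparison addressed the floxed Nrf2 gene alone. None of the 77 was called in Nrf2 KO by edgeR's quasi-likelihood test, at an adjusted p of at most 0.05 over all genes tested, in either direction. Of all genes tested, 0.594% were called lower and 0.132% higher in this comparison. None of the 77 had an unadjusted p under 0.05, compared with 1279 of all 13641 genes tested. DESeq2 and limma-voom called none of the 77 either. The median log2 fold change was -0.01, the values ranged from -0.27 to 0.19, and the 95% intervals of single genes lay within -0.59 and 0.46. The lowest value was that of Rpl6, a protein of the large subunit (log2 fold change -0.27, SE 0.126, adjusted p = 0.562). Rpl6 had 9881, 10050 and 10521 normalized counts in control and 8287 and 8593 in Nrf2 KO, so its libraries did not overlap, as was the case for 13.6% of all genes in this direction and for 4 of the 77. The highest value was that of Rps14, a protein of the small subunit (log2 fold change 0.19, SE 0.124, adjusted p = 0.726). Further genes at the ends of the range were Rplp2 (-0.23), Rpl12 (-0.225), Rps3 (-0.20), Rpl27a (0.17) and Rpl19 (0.14), and none of them passed the test.

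In p65 KO, 34 of the 77 genes fell and none rose, whereas 6.77% of all genes tested were called lower and 8.13% higher. All 77 values were below 0, with a median log2 fold change of -0.43 (interquartile range -0.48 to -0.32), a range from -0.95 to -0.08 and a median SE of 0.128. The median over all genes tested was 0.0009. The libraries did not overlap with control in 71 of the 77 genes, compared with 23.8% of all genes in this direction. None of the 77 reached a 2-fold change, the additional threshold of the study's methods.

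Both subunits took part. Of the 46 large subunit genes 23 fell, with a median log2 fold change of -0.43, and of the 31 small subunit genes 11 fell, with a median of -0.41. The large subunit genes that fell were Rpl41, Rpl27, Rpl31, Rpl35, Rpl12, Rpl35a, Rpl23a, Rplp2, Rpl14, Rpl13a, Rpl36, Rpl38, Rpl22, Rpl34, Rpl21, Rpl36a, Rpl24, Rpl19, Rpl6, Rpl28, Rpl13, Rpl27a and Rpl11, with log2 fold changes from -0.95 (Rpl41) to -0.41 (Rpl11). Those of the small subunit included Rps24, Rps27l, Rps12, Rps3, Rps15, Rps14, Rps13, Rps21 and Rps26, from -0.76 (Rps24) to -0.43 (Rps26).

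Rpl41, which encodes a very short basic peptide of the large subunit (chromosome 10 from 128383979 to 128387628 in GRCm39, coding length 138 bases), had the lowest value. It had 12617, 11209 and 12511 normalized counts in control, 5149 and 7432 in p65 KO, 10832, 9541 and 10212 in DKO, and 10688 and 13026 in Nrf2 KO. Both p65 KO libraries were below all others, with a log2 fold change of -0.95 (SE 0.164, adjusted p = 0.00570). Rpl27 of the large subunit had 4336, 4056 and 4253 normalized counts in control and 2101 and 2991 in p65 KO (log2 fold change -0.73, SE 0.146, adjusted p = 0.0109). Rps24 of the small subunit, a gene mutated in some patients with Diamond-Blackfan anaemia, had 7655, 7342 and 7524 in control and 3569 and 5325 in p65 KO (log2 fold change -0.76, SE 0.162, adjusted p = 0.0141). In both genes, p65 KO replicate 1 was lower than replicate 2, and both libraries were below every control.

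Rps27l, a paralog of Rps27 that is also a p53 target, had 4785, 4336 and 4869 normalized counts in control and 2393 and 3432 in p65 KO, and fell with a log2 fold change of -0.68 (SE 0.146, adjusted p = 0.0145). Its parent gene Rps27 had 5435, 4770 and 5195 in control and 3970 and 4377 in p65 KO, and did not pass the test (log2 fold change -0.30, SE 0.13, adjusted p = 0.143). The difference between the paralogs was not tested.

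The genes of the ribosomal stalk, the flexible arm of the large subunit that recruits elongation factors, were lower in both p65 KO libraries than in every control library. Rplp2 had 2479, 3200 and 3338 normalized counts in control and 1866 and 2088 in p65 KO, and fell (log2 fold change -0.60, SE 0.164, adjusted p = 0.0337). Rplp0, which anchors the stalk, had log2 fold change -0.35 (SE 0.133, adjusted p = 0.0992), and Rplp1 had -0.32 (SE 0.114, adjusted p = 0.0826). Rpsa, a protein of the small subunit that is also known as the laminin receptor, had 16571, 14647 and 14782 normalized counts in control and 11493 and 12357 in p65 KO (log2 fold change -0.36, SE 0.114, adjusted p = 0.056). Rplp0, Rplp1 and Rpsa thus did not pass the test.

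The smallest differences in p65 KO were those of Rps20, Rpl4 and Rpl3. Rps20 of the small subunit had 4534, 4430 and 4583 normalized counts in control and 4257 and 4317 in p65 KO (log2 fold change -0.08, 95% interval -0.28 to 0.13). Rpl4, which lines the exit tunnel of the large subunit, had 15904, 15699 and 15679 in control and 13729 and 15995 in p65 KO (log2 fold change -0.08, 95% interval -0.33 to 0.16). Rpl3, which reaches towards the peptidyl transferase centre, had a log2 fold change of -0.11 (95% interval -0.37 to 0.14). The duplicates Rpl10l and Rpl39l were too low to test, and their parents Rpl10 (-0.26, adjusted p = 0.228) and Rpl39 (-0.45, adjusted p = 0.0654) did not pass in p65 KO. In Rpl4 and Rpl3 the higher of the p65 KO libraries lay within or above the control range.

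The count of 34 rested on single libraries. It was 0 without p65 KO replicate 1, 9 without control replicate 1, 18 without control replicate 2 and 7 without control replicate 3, while the medians stayed below 0, between -0.55 and -0.28 over the libraries left out in turn. Scaling to equal total counts gave 5 genes, all lower, with a median of -0.25. This scaling moved the median of all genes averaging 50 or more normalized counts from -0.06 to 0.12. Relative to that median the 77 genes were at -0.37 under both scalings. A scaling shifts all genes nearly alike, so this value had to stay close and is no sign of stability. With DESeq2, 50 of the 77 were called, and with limma-voom 43. For these and the other alternative settings below, the share of all genes called is not given here. Such counts therefore have no background beside them.

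**Figure D3:**
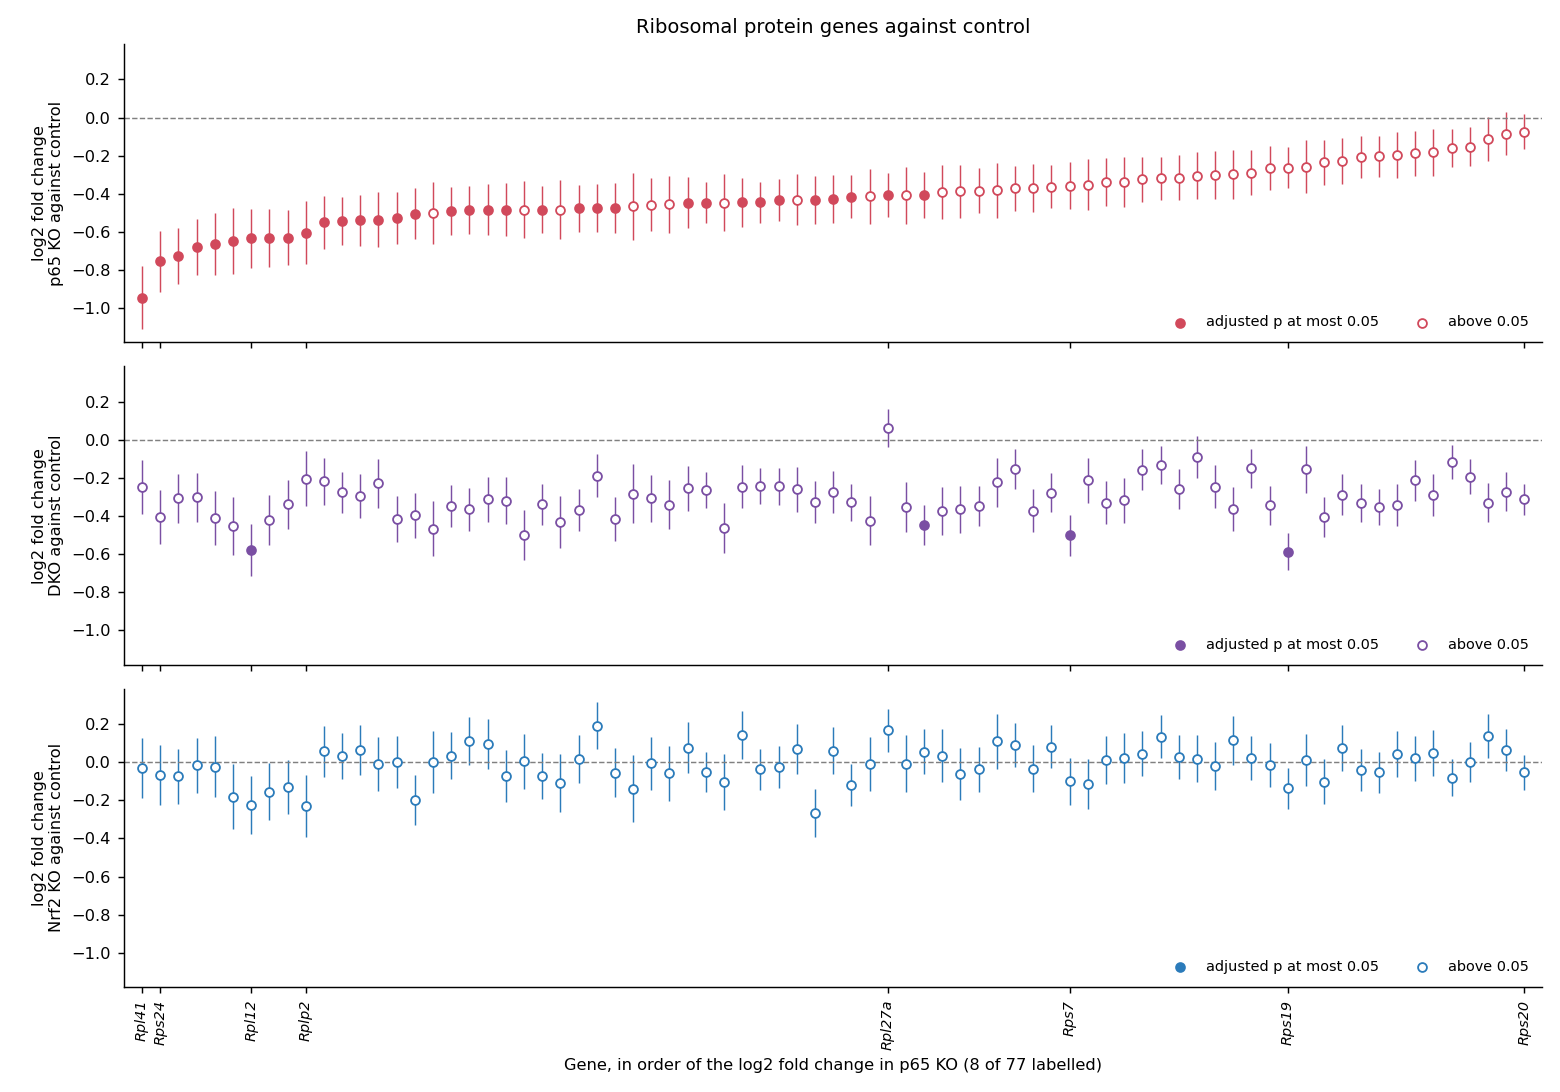
Log2 fold change of each ribosomal protein gene against control in p65 KO (top), DKO (middle) and Nrf2 KO (bottom), with SE, in the order of the p65 KO values and with 8 genes labelled. Filled points passed the test at an adjusted p of 0.05, and these are 34, 4 and 0 genes. The 3 comparisons share the control libraries.

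In DKO, 4 of the 77 genes fell and none rose, against 2.84% of all genes tested that were called lower and 2.61% that were called higher. The share of called genes was thus close to that of all genes, but the values were shifted, with 76 of the 77 below 0, a median log2 fold change of -0.32 (interquartile range -0.37 to -0.24) and a range from -0.59 to 0.06. The libraries did not overlap with control in 64 of the 77, compared with 13.2% of all genes in this direction. An unadjusted p under 0.05 was found in 55 of the 77 and in 3073 of all 13641 genes tested. The medians of the large and small subunit were -0.32 and -0.31. The genes that fell were Rps19, Rps7, Rpl11 and Rpl12. Of these, Rpl11 and Rpl12 also fell in p65 KO, a comparison with the same control libraries.

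Rps19, a small subunit protein whose gene is the one most often mutated in Diamond-Blackfan anaemia (chromosome 7 from 24583796 to 24589231 in GRCm39), had 5463, 4602 and 4874 normalized counts in control and 3350, 3173 and 3421 in DKO. It had 3988 and 4304 in p65 KO and 4617 and 4436 in Nrf2 KO, so the DKO libraries were below those of every other genotype. Its log2 fold change in DKO was -0.59 (SE 0.0963, adjusted p = 0.00791), and it passed the test under all 23 alternatives to the processing, with adjusted p between 8.96e-07 and 0.0363. In p65 KO it was at -0.26 (SE 0.108, adjusted p = 0.121).

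Rps7, a small subunit protein that can bind Mdm2, the ubiquitin ligase of p53, had 8222, 6907 and 7117 normalized counts in control and 5607, 4956 and 5149 in DKO (log2 fold change -0.50, SE 0.109, adjusted p = 0.0262). Rpl11, a large subunit protein that binds Mdm2 when ribosome assembly is disturbed, had 8421, 7018 and 7632 in control and 5973, 5485 and 5491 in DKO (log2 fold change -0.44, SE 0.105, adjusted p = 0.0352). Rpl12, which lies at the base of the stalk, had 6607, 5877 and 6191 in control and 4458, 3843 and 4201 in DKO (log2 fold change -0.58, SE 0.137, adjusted p = 0.0353). In all 3 genes every DKO library was below every control library. Unlike Rps19, they did not pass under every alternative to the processing. Of 23 alternatives, Rps7 passed in 16, Rpl12 in 15 and Rpl11 in 11. The next lowest p-values were those of Rpl30 (log2 fold change -0.40, adjusted p = 0.0519) and Rpl26 (-0.50, adjusted p = 0.0531), which did not pass.

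Rpl27a was the only one of the 77 above 0 in DKO (log2 fold change 0.06, SE 0.101, adjusted p = 0.751). It had 7717, 6885 and 6866 normalized counts in control, 8213, 7338 and 6866 in DKO, 7848 and 8225 in Nrf2 KO, and 5501 and 5282 in p65 KO. Its p65 KO libraries alone lay apart from the other genotypes. Rps28 (-0.09) and Rpl29 (-0.12) were the next highest in DKO and did not pass the test. The count of 4 was 1 without control replicate 1, control replicate 3, DKO replicate 2 or DKO replicate 3, and 2 without control replicate 2. It was 36, all lower, when libraries were scaled to equal totals, where the median of all genes averaging 50 or more normalized counts moved from -0.02 to -0.11, and 33 with DESeq2. The shares of all genes called under these settings are not given here.

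**Figure D4:**
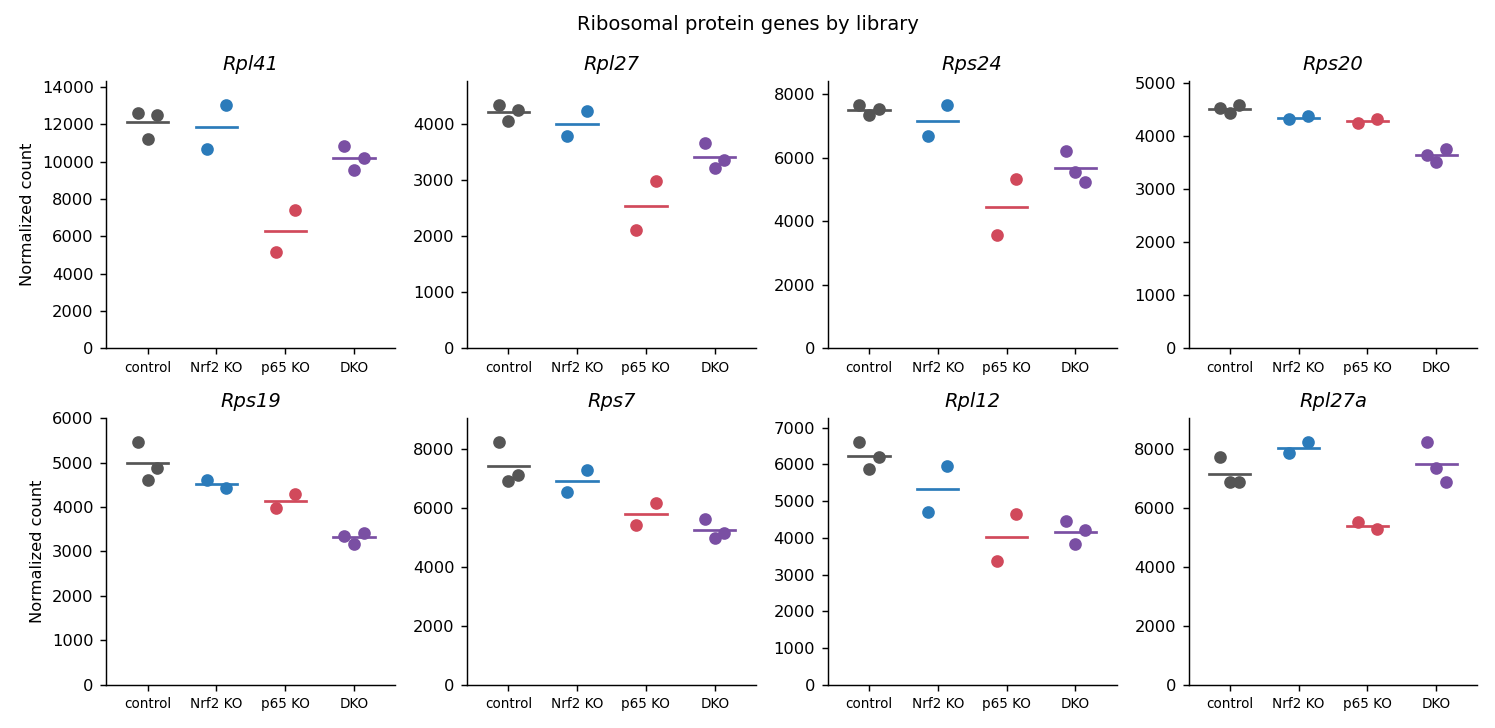
Normalized counts of 8 ribosomal protein genes by genotype, with 1 point per library, a line at the mean of each genotype and axes that start at 0. Rpl41, Rpl27 and Rps24 are lowest in p65 KO, Rps19, Rps7 and Rps20 have their lowest libraries in DKO, Rpl12 is low in both, and Rpl27a is low only in the 2 p65 KO libraries.

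DKO was then compared directly with p65 KO, genotypes that differ by the floxed Nrf2 gene. Of the 77 genes 2 rose and none fell, against 2.05% and 2.06% of all genes tested, so the count was close to that of genes in general. Rpl41 had a log2 fold change of 0.70 (SE 0.163, adjusted p = 0.0405) and Rpl27a of 0.47 (SE 0.115, adjusted p = 0.0471), and in both every DKO library was above both p65 KO libraries. The median log2 fold change was 0.11, with 57 genes above 0 and 20 below. Rps19 (-0.32, adjusted p = 0.116) and Rps20 (-0.24, adjusted p = 0.163) lay at the other end, with all 3 DKO libraries below both p65 KO libraries, and did not pass. Rps20 had 3642, 3509 and 3762 normalized counts in DKO. Rpl27 (0.42, adjusted p = 0.129) and Rps27l (0.38, adjusted p = 0.161) were higher in all 3 DKO libraries and did not pass either. The direction of this comparison depended on the scaling. Under equal total counts 9 genes were called, all lower in DKO, with a median of -0.16, while the median of all genes averaging 50 or more normalized counts moved from 0.03 to -0.24. With the offset for coding length described below, chosen after seeing the data, the median was -0.01 and the 2 genes called were lower in DKO. The count of 2 rested on single libraries, being 1 without p65 KO replicate 2, DKO replicate 2 or DKO replicate 3 and 0 without any other library. Without p65 KO replicate 1, Rpl41 was at 0.46 and Rpl27a at 0.50.

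Against Nrf2 KO, from which DKO differs by the floxed p65 gene, none of the 77 genes was called in DKO by edgeR, where 0.191% of all genes tested were called lower and 0.323% higher. DESeq2 called 8, all lower, and limma-voom 0, with the shares of all genes called by these tools not given here. An unadjusted p under 0.05 was found in 45 of the 77 genes and in 1961 of all 13641 genes tested. The median log2 fold change was -0.31, with 76 of 77 below 0 and a range from -0.50 to 0.03. The lowest p was that of Rpl11 (log2 fold change -0.50, SE 0.117, adjusted p = 0.106), followed by Rps19 (-0.45, adjusted p = 0.11), Rpl3 (-0.47, adjusted p = 0.113), Rpl22 (-0.48, adjusted p = 0.13) and Rps27 (-0.47, adjusted p = 0.141). The interaction is the difference of DKO from p65 KO minus that of Nrf2 KO from control. It was not called for any of the 77 genes by edgeR, DESeq2 or limma-voom, against 0.205% of all genes lower and 0.264% higher. An unadjusted p under 0.05 was found in 1888 of all 13641 genes tested and, a lower share, in 3 of the 77. These were Rpl41 (0.73, SE 0.228, adjusted p = 0.211), Rplp2 (0.63, SE 0.23, adjusted p = 0.268) and Rpl27 (0.49, SE 0.204, adjusted p = 0.33). Rpl3 (-0.35, adjusted p = 0.371) and Rpl23a (0.42, adjusted p = 0.385) came next. A difference in response between genotypes was thus not shown for any single gene, with intervals of single genes between -0.71 and 1.23.

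Ribosomal protein genes are short, and gene length moved with the difference in p65 KO. Over the 77 genes, the log2 fold change in p65 KO and the log2 coding length had a Pearson's r of 0.42 and a Spearman's rho of 0.33, and in DKO of 0.05 and 0.13. These correlations are across genes of the same libraries and are descriptions. Among other genes averaging 50 or more normalized counts, the p65 KO values had a median of -0.29 for the 169 genes with a coding length of up to 300 bases, -0.25 for the 1091 genes of 300 to 600 bases and 0.10 for the 1371 genes over 3000 bases. The corresponding medians of the ribosomal protein genes were -0.44 (9 genes) and -0.45 (46 genes) in the 2 shorter classes. In DKO the other genes of these 2 classes were at -0.09 and -0.10, and the ribosomal protein genes at -0.32 and -0.34. Grouped by transcript length, ribosomal protein genes and other genes lay closer in the short classes of p65 KO. Medians were -0.45 (15 genes) and -0.41 (58 genes) at 300 to 600 bases. They were -0.43 (15 genes) and -0.40 (220 genes) at 600 to 900 bases, but -0.43 and -0.12 at 1500 to 3000 bases. In DKO the 2 short classes were at -0.31 and -0.28 for ribosomal protein genes, and at -0.07 and -0.12 for other genes. When the trend with coding length was taken out of each library with an offset, an alternative chosen after seeing the data, the medians of the 77 genes were -0.21 in p65 KO and -0.23 in DKO, with 8 and 4 genes called, all lower. The part of length in the result was not tested beyond this.

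**Figure D5:**
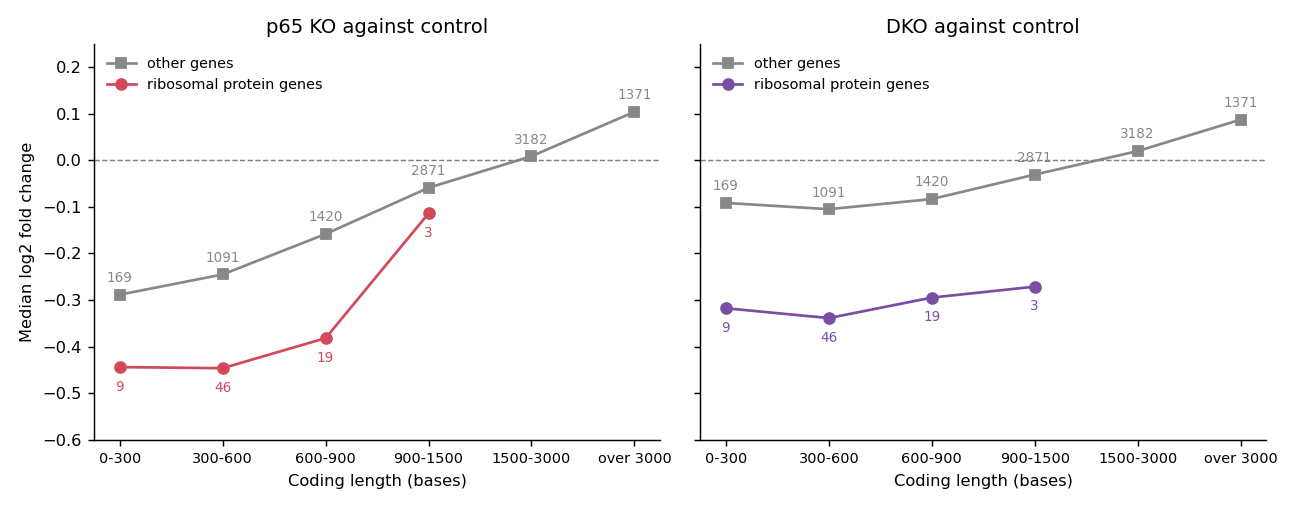
Median log2 fold change by coding length in bases, for ribosomal protein genes (coloured circles) and for other genes averaging 50 or more normalized counts (grey squares), in p65 KO (left) and DKO (right) against control, with the number of genes beside each point. In the classes up to 600 bases, the ribosomal protein genes lie at -0.45 to -0.44 and the other genes at -0.29 to -0.25 in p65 KO, compared with -0.34 to -0.32 and -0.10 to -0.09 in DKO.

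Markers of other liver cells also moved with these genotypes. All 12 Kupffer cell markers rose in p65 KO and 5 of 12 in DKO, with a summed normalized count of 378.8 to 956.8 in control, 263.5 to 814.6 in Nrf2 KO, 4470 to 6083 in p65 KO and 1662 to 2924 in DKO. All 8 sinusoidal endothelial markers and 6 of 8 stellate cell markers rose in p65 KO, and 1 of each in DKO. The endothelial markers summed to 628.3 to 1389 normalized counts in control, 3297 to 4300.4 in p65 KO and 1784 to 2418 in DKO, and the stellate markers to 196.6 to 409.1, 1969 to 1999 and 362.9 to 953.8. Those with the lowest p in p65 KO were Cd5l and C1qb (log2 fold changes 3.32 and 2.83), Lyve1 and Fcgr2b (2.66 and 1.85), and Dcn and Rgs5 (3.63 and 2.76). The 8 hepatocyte markers summed to between 3588429 and 4995391 in control, 4853946 and 5660838 in Nrf2 KO, 4090352 and 4307576 in p65 KO, and 4455732 and 4482703 in DKO. Of these 8 markers, 2 rose and none fell in p65 KO, and 2 rose and none fell in DKO. None was called in Nrf2 KO. No marker of these 4 lists was at 0 in every library. Of the other lists, 2 of 6 tested markers of monocytes and dendritic cells and 1 of 4 of neutrophils rose in p65 KO, and none of T and NK cells, B cells, cholangiocytes or erythroid cells was called in p65 KO or DKO. Ly6g, a neutrophil marker, was at 0 in every library. The part of other cells in the lower ribosomal protein values was not tested.

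Some ribosomal proteins have symbols outside the rule. Of these, Fau, a fusion of a ubiquitin-like protein with a small subunit protein, fell in p65 KO (log2 fold change -0.49, SE 0.136, adjusted p = 0.0369), as did Rps3a1 of the small subunit (-0.45, SE 0.125, adjusted p = 0.0374). Rack1, a scaffold on the small subunit (-0.29, adjusted p = 0.0856), Rpl36al (-0.34, adjusted p = 0.14), Rpl22l1 (-0.37, adjusted p = 0.235) and Rpl7l1 (-0.32, adjusted p = 0.0921) did not pass. None of these 6 genes was called in Nrf2 KO or DKO. Of the 7 genes of this kind that were tested, the remaining 1 went the other way and rose in p65 KO (log2 fold change 0.87).

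For other genes of translation, the counts were near or below those of genes in general, of which 6.77% were called lower and 8.13% higher in p65 KO. Of 40 genes in a list of translation factors and related proteins, 3 fell in p65 KO and none rose, with a median log2 fold change of -0.15. None was called in DKO, with a median of -0.15. Those that fell were Eef1b2, an exchange factor of elongation factor 1 (-0.52, adjusted p = 0.0295), Tpt1, also known as Tctp (-0.57, adjusted p = 0.0316), and Eif3m, a subunit of initiation factor 3 (-0.61, adjusted p = 0.0423). Eef1b2 and Tpt1 are themselves encoded by messenger RNAs with a terminal pyrimidine tract. Of 120 ribosome biogenesis genes, 9 rose and 4 fell in p65 KO, with a median of 0.04. Polr1a, the largest subunit of RNA polymerase I, rose (0.76, adjusted p = 0.00822), and Pno1, a late assembly factor of the small subunit, fell (-0.66, adjusted p = 0.00663). In DKO 1 of the 120 rose, Utp20 (0.80, adjusted p = 0.0241), and 1 fell, Polr1f (-0.56, adjusted p = 0.0276). None of these genes was called in Nrf2 KO, where Eif5 (-0.29, adjusted p = 0.394) and Rrs1 (-0.65, adjusted p = 0.0753) had the lowest p of the 2 lists.

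Per length, the highest mean normalized counts per kb of transcript were those of Rpl41 (18432), Rpl10 (16367), Rps2 (16040), Rplp1 (15755) and Rps18 (15366), and the lowest those of Rps15a (527), Rpl37 (608) and Rps20 (1125). The 3 lowest are genes for which the annotation's representative transcript is 3710 to 6111 bases long with a coding length of 291 to 390, so their values per kb depend on the transcript chosen. The counts of single genes are uncertain where reads could be shared with pseudogenes or paralogs. The median share of 31-base stretches found in another gene of the annotation was 43.36%, with a range from 3.12% to 91.31%, and 29 of the 77 genes were above 50%. Over the 77 genes this share and the log2 fold change in p65 KO had a Pearson's r of 0.03 and a Spearman's rho of 0.03. In the 39 genes at or below the median share 18 fell in p65 KO and in the 38 above it 16 fell, with medians of -0.45 and -0.41.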

How the data were processed

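RNA of hepatocytes of 10 mice was sequenced with a stranded kit for polyadenylated RNA. The authors quantified the reads with Salmon 1.10.3 (GRCm39, GENCODE M33) and deposited 1 estimated count per gene and library, rounded to whole numbers. The table carries the word normalized in its name, but its values are whole numbers with unequal library totals. They were taken as unnormalized estimated counts, although unequal totals alone do not show this. The step from transcripts to genes is not given in the sources used here. The genes and lists described here were chosen with earlier results of these data known.

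The 13641 genes whose counts over all libraries added up to 10 or more entered edgeR's quasi-likelihood test (edgeR 4.0.16, R 4.3.3) in 1 fit of the 4 genotypes, with TMM and Benjamini-Hochberg adjustment over all genes within each of 6 comparisons, at an adjusted p of 0.05. A normalized count is the count over the effective (TMM) library size, times the mean of that size. Each SE is the log2 fold change divided by the square root of the F statistic, and 95% intervals use the total degrees of freedom. Each library is 1 mouse, and replicates of each genotype differed by more than sampling noise (chi-square per degree of freedom at least 45.1). The fit was also run on simulated data, the outcome of which is not reported here. DESeq2 1.42.0 and limma 3.58.1 were alternatives, as were other scalings, filters, a block for the replicate number, fits of only the compared genotypes, and each library left out. Positions came from GENCODE M39 (21926 of 21939 identifiers), promoters from RefSeq, and figures from matplotlib 3.10.9 in Python 3.11.15.

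Named genes were, per comparison, the 5 with the lowest p, per comparison with control the 3 farthest above and below the median, the 5 highest and 3 lowest per kb, the stalk genes, Rpsa, duplicates with their parents, ribosomal proteins outside the symbol rule, and from other lists the 2 genes with the lowest p, of which those of the main lists are given. Genes listed as called, Rpl26, Eif3m and those with printed sequences were chosen after seeing their values. Some genes that this rule names are not reported here.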

Additional observations from a re-analysis of the deposited data

How the results depend on the processing

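For p65 KO, 34 genes were called, 7 with a replicate block, 22 with only the compared genotypes, 5 under equal total counts, and between 0 and 36 when each library was left out in turn. For DKO, 4 were called, 33 with DESeq2, 36 under equal total counts, 1 with a replicate block, 2 with only the compared genotypes, and between 1 and 5 when each library was left out. For DKO against p65 KO, 2 were called, both higher. This count was 4 with DESeq2 (2 in each direction), 1 with median-of-ratios size factors, 9 under equal total counts, all lower, 0 with a replicate block, 0 with only the compared genotypes, and between 0 and 1 when each library was left out. For DKO against Nrf2 KO, 0 became 8 with DESeq2 and 1 under equal total counts. Nrf2 KO and the interaction gave 0 under every setting run. The shares of all genes called under these settings are not given here. Offsets were chosen after seeing the data. An offset for coding length gave 8 genes in p65 KO and 2, both lower, in DKO against p65 KO, one for GC content gave 1 in the latter, and the length offset with a replicate block gave 3, 1 and 0 in p65 KO, DKO and DKO against p65 KO. No label says that the replicate numbers pair the mice. Deviations of same-numbered libraries had correlations from -0.232 to 0.113 (median -0.0562), and those of other pairs from -0.17 to 0.232. With so few mice per genotype, these values cannot decide whether same-numbered libraries share a litter, batch or day. What the lower block counts mean therefore stays undecided. As shares of the total count, the sums were at -13.5% in p65 KO and -23.5% in DKO, against -23.6% and -18.5% after TMM. The cause of these shifts was not tested, except that fewer libraries or other scalings are what each setting changes. Mean counts of 1851 to 17628 per library keep counting error of single genes small beside the spread between mice, and the 2 mice each of Nrf2 KO and p65 KO limit the precision.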

Other observations

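Mitochondrial ribosomal proteins translate the few proteins encoded in the mitochondrion. Of their 78 genes, 32 fell and none rose in p65 KO, with a median log2 fold change of -0.38, compared with 6.77% of all genes called lower. None of the 78 was called in DKO (median -0.12) or Nrf2 KO (median 0.0024). Mrpl44 had 626, 687 and 700 normalized counts in control and 410 and 412 in p65 KO (log2 fold change -0.71, SE 0.111, adjusted p = 0.00386). Mrpl53 fell as well (-0.70, SE 0.134, adjusted p = 0.00858). In DKO, Mrpl48 (-0.38, adjusted p = 0.11) and Mrpl4 (-0.24, adjusted p = 0.171) had the lowest p. In DKO against p65 KO, 4 of the 78 rose and none fell, with a median of 0.27, compared with 2.05% of all genes called higher. Of 56 short subunits of the respiratory chain, 23 fell in p65 KO (median -0.43) and none was called in DKO (median -0.10). Ndufb4, of complex I, had 2166, 2089 and 2226 normalized counts in control, 1014 and 1395 in p65 KO, and 2008, 1805 and 1845 in DKO (log2 fold change in p65 KO -0.84, SE 0.14, adjusted p = 0.00478), and Uqcrq, of complex III, fell too (-0.62, SE 0.128, adjusted p = 0.0123). The cytosolic ribosomal protein genes had a median of -0.43 in p65 KO and -0.32 in DKO.

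Of 13 genes encoded in the mitochondrion, 5 fell in p65 KO, with a median of -0.52, and none was called in DKO (median 0.02). mt-Nd3 had a log2 fold change of -0.75 (SE 0.157, adjusted p = 0.0134) and mt-Atp8 of -0.62 (SE 0.159, adjusted p = 0.0269). The 13 genes summed to between 3504594 and 4241411 normalized counts in control, 2406166 and 3208506 in p65 KO, and 3805064 and 4257313 in DKO. Of 28 genes of growth signalling, 1 rose in p65 KO, a share below the 8.13% of all genes tested that were called higher. This was Deptor, an inhibitor of mTOR (0.58, SE 0.125, adjusted p = 0.0141). It had 6574, 7399 and 7635 normalized counts in control, 10951 and 10638 in p65 KO, and 6639, 8399 and 6918 in DKO. None of the 28 was called in DKO or Nrf2 KO. Ddit4, another mTOR inhibitor, was at 1.69 in DKO (adjusted p = 0.0563). The lists were described and not tested as sets.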
